A study of Rattus norvegicus with 36 samples.

Results

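Lrrc32 and 9 genes of transforming growth factor beta (TGF-beta) signalling were followed in the aorta of rats on normal or high salt. The members were taken by gene symbol: Lrrc32, the ligands Tgfb1, Tgfb2 and Tgfb3, the receptors Tgfbr1, Tgfbr2 and Tgfbr3, the binding proteins Ltbp1 and Ltbp2, and the inhibitor Smad7. All 10 were present among the 26106 genes of the deposited table, and all 10 passed the filter on low values, a mean of 0.5 or more, with 13475 genes. Lrrc32 (ENSRNOG00000015310) was chosen by its measured values in these samples, so its levels and fold changes are a description without a test in every comparison. The list around it was also drawn up with earlier results of these data known. Counts of members that passed a test are therefore given beside the share of all genes that passed, and nothing is read from them. RefSeq places none of the 10 genes on chromosome 2 (0 of 10, assembly GRCr8), which is the chromosome that differs between the strains.

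Sequencing of total RNA covered a segment of the descending thoracic aorta of male Dahl salt-sensitive rats (SS) and from congenic rats on the SS background. S2Ba rats carried the distal portion of chromosome 2 of the Brown Norway (BN) strain, and S2Bb rats carried a middle segment of the same chromosome. Diets began at 4 to 6 weeks of age and ended at 12 to 13 weeks, and the high salt diet held 4% NaCl. All animals shared the SS background and male sex, so both normal salt congenic groups are also salt-sensitive in background, and BN animals are not among the groups. Libraries numbered 6 on normal and 5 on high salt in SS, 6 and 5 in S2Ba, and 6 and 6 in S2Bb. Values are normalised read counts, that is, reads divided by a size factor of the library, and groups are given as mean ± SD. Recovered depth ran from 8753735 to 15168833 reads per library. Lrrc32 had 390 to 1526 reads in a library, Ltbp2 had 6823 to 58284, and Tgfb1, the scarcest member in reads, had 99 to 313. Levels are compared between samples and not between genes, because reads also depend on transcript length. Smooth muscle markers summed to between 20056 and 27308 in every library, so the defining genes of the vessel wall's muscle were present throughout. Whether every sample came from its own animal is not stated in the labels. The p-values are thus about sample-to-sample spread.

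TGF-beta is secreted in a latent form, wrapped in its own propeptide and usually bound to a latent TGF-beta binding protein that tethers it to the matrix. Once released, it binds the type II receptor, which activates the type I receptor, and that kinase phosphorylates Smad2 and Smad3. In arteries the pathway is known for its control of smooth muscle differentiation and of matrix deposition. Lrrc32 encodes GARP, a membrane protein that holds latent TGF-beta at the cell surface and was studied chiefly in regulatory T cells and platelets.

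Lrrc32 was lower on high salt in all 3 strains, at 0.40, 0.50 and 0.53 of its fitted normal salt level in SS, S2Ba and S2Bb. In SS it ran from 91.6 to 124.6 on normal salt with a median of 98.3, and the high salt libraries held 31.8, 33.9, 38.7, 41.8 and 65.2. In S2Bb it ran from 87.5 to 108.2 with a median of 98.8 on normal salt and from 45.8 to 57.8 with a median of 53.4 on high salt. The diets did not overlap in either of these strains. In S2Ba the normal salt libraries were spread from 44.1 to 150.9 with a median of 96.4, and the high salt libraries held 34.1, 42.2, 42.5, 45.9 and 51.3. The groups overlapped there through S2Ba normal salt replicate 6, at 44.1, and replicate 5, at 54.1, lay just above the highest high salt value. The same 2 libraries were also the lowest of their group in Tgfb1, Tgfb2, Tgfbr2, Tgfbr3 and Smad7.

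The group means of Lrrc32 were 102.7 ± 12.1 and 42.3 ± 13.4 in SS, 94.1 ± 40.4 and 43.2 ± 6.26 in S2Ba, and 98.6 ± 6.63 and 52.0 ± 4.56 in S2Bb, on normal and high salt respectively. The log2 fold change of high against normal salt was -1.31 in SS (SE 0.20), -1.003 in S2Ba (SE 0.20) and -0.92 in S2Bb (SE 0.19). Leaving out any single library kept it between -1.48 and -1.22 in SS, between -1.19 and -0.84 in S2Ba and between -0.95 and -0.88 in S2Bb. On the same diet the strains lay close together: the log2 difference from SS was -0.24 for S2Ba and -0.05 for S2Bb on normal salt, and 0.07 and 0.34 on high salt, each with an SE of about 0.20. In order of group means, the 3 normal salt groups stood above the 3 high salt groups. Neighbours in that order differed by less than their SDs on normal salt, as did SS and S2Ba on high salt, whereas the S2Bb mean on high salt lay above that of S2Ba by more than either SD. Leaving out any single library kept the log2 difference of S2Bb from SS on high salt between 0.25 and 0.51, and it was not tested.

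**Figure D1:**
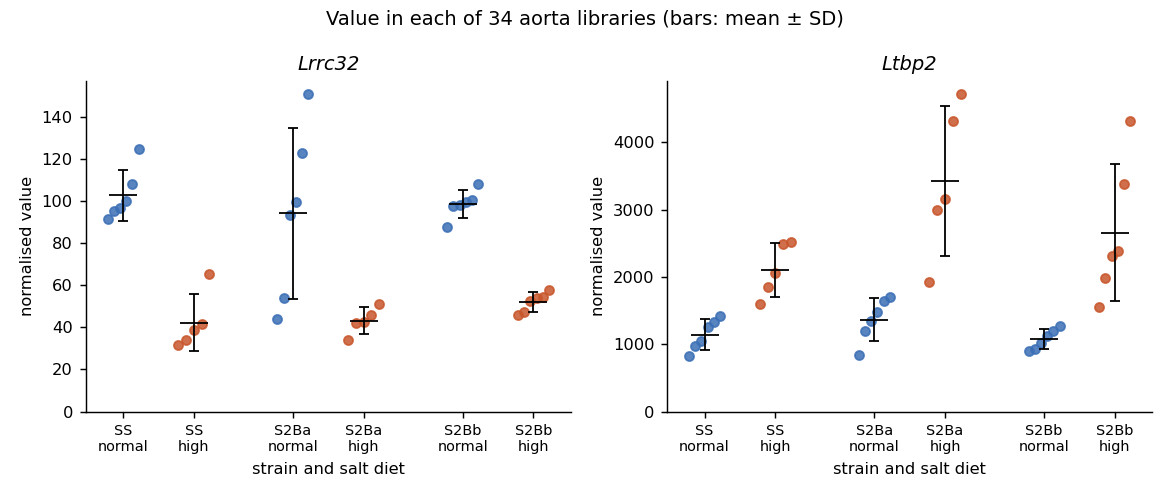
Normalised values of Lrrc32 and Ltbp2 in each library, by strain and diet; points are libraries and bars are the mean ± SD. Lrrc32 fell from 102.7 to 42.3 in SS while Ltbp2 went from 1141 to 2106, and the S2Ba normal salt libraries of Lrrc32 are split between 44.1 to 54.1 and 93.5 to 150.9.

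Ltbp2 and Ltbp1, the binding proteins among the members, had higher means on high salt. Ltbp2, a microfibril-associated protein that does not itself bind latent TGF-beta, rose on high salt in every strain. In SS it ran from 819 to 1418 with a median of 1155 on normal salt, and the high salt libraries held 1601, 1852, 2059, 2498 and 2519. In S2Ba it ran from 840 to 1698 with a median of 1409 on normal salt, and the high salt libraries held 1927, 3000.5, 3157, 4314 and 4718. In S2Bb it ran from 906 to 1278 with a median of 1078 on normal salt and from 1555 to 4322 with a median of 2348 on high salt. No strain's diets overlapped for Ltbp2, although the high salt libraries of the congenic strains were far more spread than those on normal salt.

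Ltbp2 group means were 1141 ± 232 and 2106 ± 402 in SS, 1367 ± 319 and 3423 ± 1114 in S2Ba, and 1080 ± 149 and 2658 ± 1016 in S2Bb. The log2 fold change was 0.89 in SS (SE 0.22, limma adjusted p = 0.0129), 1.29 in S2Ba (SE 0.22, limma adjusted p = 0.000189) and 1.23 in S2Bb (SE 0.21, limma adjusted p = 7.98e-05). The call held in each strain when any single library was left out. Ltbp1, which bonds covalently to latent TGF-beta and anchors it to the matrix, changed less. It went from 1128 ± 88.8 to 1359 ± 57.5 in SS (log2 fold change 0.27, limma adjusted p = 0.0440) and from 959 ± 53.8 to 1313 ± 119 in S2Bb (0.45, limma adjusted p = 0.000158). In S2Ba it stood at 1146 ± 123 and 1351 ± 173 (0.23, limma adjusted p = 0.0587) and did not pass the test, though it passed in DESeq2, with upper quartile scaling, and without normal salt replicate 3 or 4 or high salt replicate 4 or 5.

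The Ltbp1 diets did not overlap in SS or in S2Bb. In SS the normal salt libraries reached 1224 and the high salt libraries held 1292, 1326, 1339, 1405 and 1431, while in S2Ba the high salt values of 1124, 1224, 1415, 1441 and 1551 began below the highest normal salt value of 1272. The SS call of Ltbp1 was lost when any 1 of 8 libraries was left out, namely normal salt replicates 2, 5 and 6 and each of the 5 high salt libraries, with the limma adjusted p between 0.0357 and 0.102 over all 11 omissions, and with no filter on low values (0.0887). As a ratio of normalised values within a library, Ltbp2 to Lrrc32 went from 11.3 ± 2.84 to 51.6 ± 10.7 in SS, from 16.6 ± 7.33 to 81.1 ± 27.5 in S2Ba and from 10.99 ± 1.57 to 50.8 ± 18.1 in S2Bb. These ratios set libraries side by side and say nothing of the molar amounts of the proteins.

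Promoter sequence is shown for both binding proteins, whose means rose, and for the co-receptor Tgfbr3, which fell in every strain. These genes were chosen with their salt results known, so nothing is read from the number of matches. Each is the 250 bases before the annotated start in RefSeq, build GRCr8, 5′ to 3′ on the gene's strand, and capitals mark the Smad box, CAGAC or its complement GTCTG. The Ltbp2 stretch is chr6:110257299-110257548 on the minus strand, the Ltbp1 stretch chr6:26177302-26177551 on the minus strand and the Tgfbr3 stretch chr14:2634044-2634293 on the plus strand.
Ltbp2: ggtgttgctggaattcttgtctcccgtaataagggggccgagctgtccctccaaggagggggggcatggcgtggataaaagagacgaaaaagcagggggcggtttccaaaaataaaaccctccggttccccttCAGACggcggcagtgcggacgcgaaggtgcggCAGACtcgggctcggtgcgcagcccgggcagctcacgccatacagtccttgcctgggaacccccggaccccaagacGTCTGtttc
Ltbp1: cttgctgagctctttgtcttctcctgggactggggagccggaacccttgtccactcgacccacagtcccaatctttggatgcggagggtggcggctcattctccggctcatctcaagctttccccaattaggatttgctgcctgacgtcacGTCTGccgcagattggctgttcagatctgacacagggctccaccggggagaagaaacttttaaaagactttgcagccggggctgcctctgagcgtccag
Tgfbr3: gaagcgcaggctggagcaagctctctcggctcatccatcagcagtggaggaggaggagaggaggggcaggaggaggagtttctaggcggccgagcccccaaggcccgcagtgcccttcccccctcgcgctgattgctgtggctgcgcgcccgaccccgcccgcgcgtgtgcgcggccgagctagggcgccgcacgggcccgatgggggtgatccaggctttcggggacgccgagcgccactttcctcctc
The Ltbp2 stretch held 3 matches on both strands together, Ltbp1 held 1 and Tgfbr3 held 0. Of 33469 promoter stretches of this length, 42.93% held at least 1 match and 2.543% held 3 or more. The other 6 members with an entry, which are the 3 ligands, Tgfbr1, Tgfbr2 and Smad7, had 0 matches each. By group means, Tgfb3, Tgfbr1 and Smad7 were higher on high salt in every strain, Tgfb2 and Tgfbr2 were lower, and Tgfb1 varied. Whether the matches bear on the salt response was not tested. A match of these letters is a description of the sequence, and binding was not measured.

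**Figure D2:**
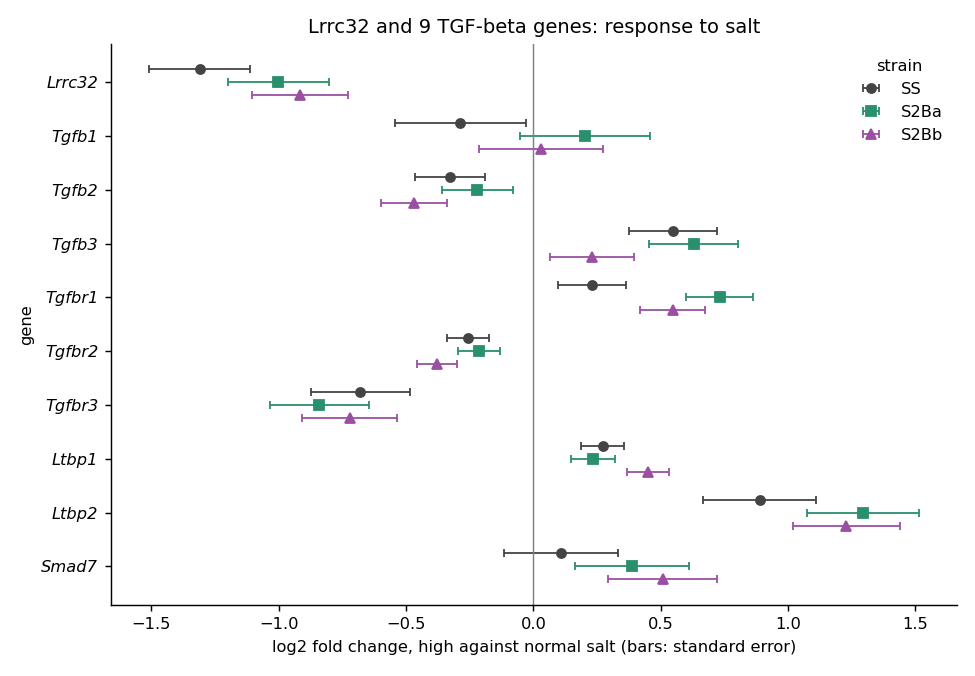
Log2 fold change of high against normal salt for the 10 members in SS, S2Ba and S2Bb; points are estimates of the 6-group model and bars are standard errors. Lrrc32, at -1.31 to -0.92, and Tgfbr3 lie to the left in all 3 strains and Ltbp2, at 0.89 to 1.29, to the right.

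The receptors moved in opposite directions. Tgfbr3, or betaglycan, is a co-receptor that presents ligand, above all TGF-beta2, to the signalling receptors, and it fell on high salt in all 3 strains. In SS it ran from 139.4 to 223.5 with a median of 164.5 on normal salt, and the high salt libraries held 85.6, 106.7, 106.8, 114.3 and 123.2. In S2Ba it ran from 93.6 to 212.9 with a median of 158.6, and the high salt libraries held 65.6, 73.6, 78.0, 90.6 and 117.4. In S2Bb it ran from 144.2 to 283.3 with a median of 190.9 on normal salt and from 77.3 to 158.6 with a median of 120.8 on high salt. SS was the only strain of the 3 in which the Tgfbr3 diets did not overlap.

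The log2 fold change of Tgfbr3 was -0.68 in SS (SE 0.20, limma adjusted p = 0.0284), -0.84 in S2Ba (SE 0.20, limma adjusted p = 0.00330) and -0.72 in S2Bb (SE 0.19, limma adjusted p = 0.00490). Leaving out SS normal salt replicate 4, 5 or 6 or SS high salt replicate 4, 5 or 6 ended the SS call, with adjusted p up to 0.0908, as did leaving low values unfiltered (0.0559), and the calls in the other strains held without any single library. Tgfbr2, the type II receptor that binds ligand first, was lower in S2Bb, where it went from 152.8 ± 15.95 to 117.1 ± 9.41 without overlap (log2 fold change -0.38, limma adjusted p = 0.000704). It went from 140.7 ± 9.80 to 117.6 ± 6.34 in SS, again without overlap (-0.26, limma adjusted p = 0.0481), and from 132.9 ± 20.5 to 113.8 ± 6.84 in S2Ba (-0.21, limma adjusted p = 0.0777). The SS value sits at the threshold: it was lost when any of the 11 SS libraries other than normal salt replicate 3 was left out, and also in edgeR, with TMM or upper quartile scaling and with no filter (adjusted p of 0.0601 to 0.0764). In S2Ba it passed with clock genes as covariates (0.0450) or without normal salt replicate 5 or 6.

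Tgfbr1, the type I kinase that phosphorylates Smad2 and Smad3, was higher on high salt in both congenic strains. In S2Ba it ran from 87.2 to 130.8 with a median of 98.5 on normal salt, and the high salt libraries held 149.8, 160.0, 162.0, 177.6 and 201.4, above all of them (log2 fold change 0.73, SE 0.13, limma adjusted p = 0.000361). In S2Bb it ran from 69.3 to 101.2 with a median of 83.8 on normal salt and from 92.8 to 161.8 with a median of 122.4 on high salt (0.55, SE 0.13, limma adjusted p = 0.00197). In SS it ran from 89.6 to 131.5 with a median of 100.9 on normal salt, and the high salt libraries held 104.4, 116.3, 120.0, 132.3 and 144.7, overlapping the normal salt range (0.23, limma adjusted p = 0.280). The difference in salt response between S2Ba and SS was 0.50 on the log2 scale (95% interval 0.12 to 0.88) and did not pass the test over all genes (limma adjusted p = 0.411).

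Tgfbr1 divided by Tgfbr2 within a library went from 0.799 ± 0.227 to 1.49 ± 0.140 in S2Ba. In SS the ratio went from 0.751 ± 0.114 to 1.05 ± 0.112 and in S2Bb from 0.559 ± 0.122 to 1.08 ± 0.277. The lowest high salt ratio lay above the highest normal salt ratio in SS (0.969 against 0.955) and in S2Ba (1.29 against 1.11), and the S2Bb diets touched (0.697 against 0.705). Over the 34 libraries Tgfbr2 and Tgfbr3 had a Pearson r of 0.81 on log2 values, and an r of 0.56 once the group means were taken out. Both genes of a library share its group and its size factor, so the first value also carries the effect of diet.

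**Figure D3:**
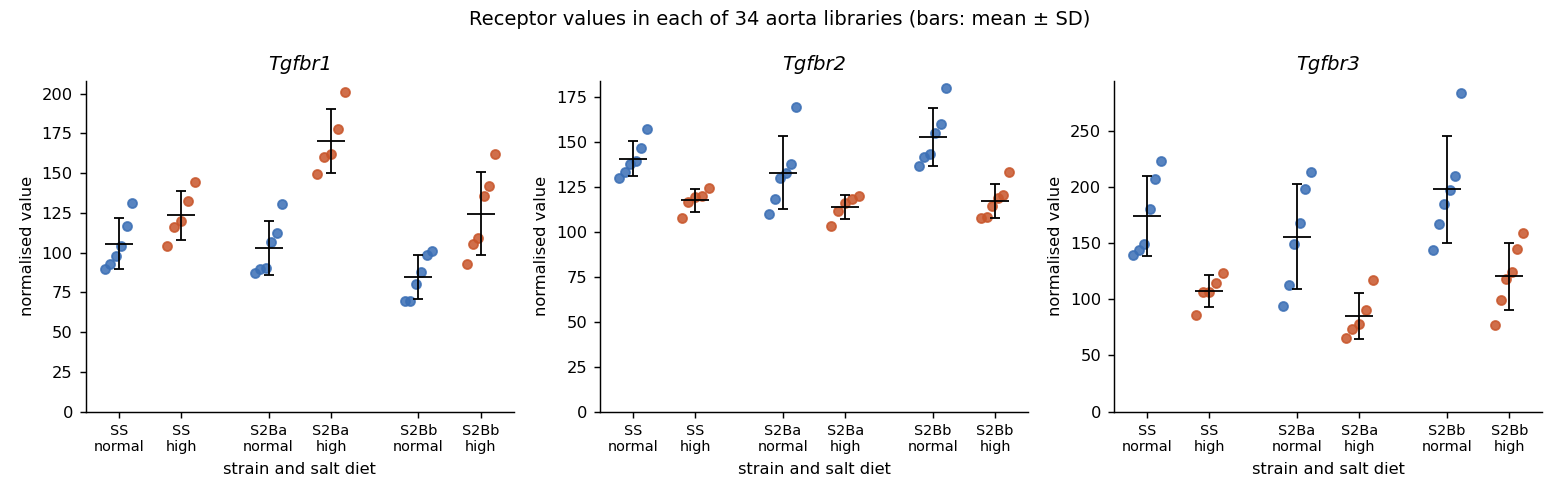
Normalised values of Tgfbr1, Tgfbr2 and Tgfbr3 in each library, by strain and diet; points are libraries and bars are the mean ± SD. Tgfbr1 on high salt was 170.2 ± 20.1 in S2Ba against 123.5 ± 15.5 in SS, whereas Tgfbr3 on high salt lay below its normal salt mean in all 3 strains.

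Among the ligands, Tgfb3 rose on salt in SS and S2Ba. In SS the normal salt libraries ran from 355 to 471 with a median of 424, and those on high salt held 487, 524, 675, 691 and 715, above all of them (log2 fold change 0.55, SE 0.17, limma adjusted p = 0.0450). In S2Ba the normal salt libraries ran from 331 to 682 with a median of 369, and those on high salt held 463, 511, 680.0, 682 and 953, overlapping through normal salt replicate 4 (0.63, SE 0.17, limma adjusted p = 0.0127). In S2Bb the groups stood at 442 ± 81.6 and 521 ± 111 (0.23, limma adjusted p = 0.338). The SS call was lost without any 1 of 9 libraries, that is, each of the 6 on normal salt and high salt replicates 4, 5 and 6, with adjusted p between 0.0364 and 0.124 over all 11 omissions, and with no filter (0.0814). The S2Ba call was lost without high salt replicate 1 (limma adjusted p = 0.0649) and when only the S2Ba groups entered the fit (0.0756).

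Tgfb2, the isoform that depends most on betaglycan for receptor binding, fell in S2Bb from 89.3 ± 16.5 to 64.4 ± 12.0 (log2 fold change -0.47, SE 0.13, limma adjusted p = 0.00914). It stood at 80.1 ± 6.67 and 63.8 ± 5.43 in SS (-0.33, limma adjusted p = 0.133, or 0.0213 when only the SS groups entered the fit) and at 74.3 ± 15.02 and 63.3 ± 9.95 in S2Ba (-0.22, limma adjusted p = 0.290). Tgfb1, the isoform most studied in fibrosis, passed no test on salt. Its log2 fold changes were -0.29 in SS (limma adjusted p = 0.510), 0.20 in S2Ba (limma adjusted p = 0.640) and 0.03 in S2Bb (limma adjusted p = 0.947), and single libraries ranged from 8.39 to 27.8. The sign in S2Bb turned with the setting, to -0.26 with clock genes as covariates and to between -0.10 and -0.02 without normal salt replicate 6, high salt replicate 4 or high salt replicate 5.

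Of the normalised values of the 3 ligands summed in a library, Tgfb3 took 80.8 ± 1.51% on normal and 88.3 ± 2.56% on high salt in SS. The corresponding values were 82.3 ± 3.68% and 88.8 ± 1.98% in S2Ba and 80.9 ± 1.55% and 86.2 ± 4.01% in S2Bb. The Tgfb2 share went from 15.5 ± 1.74% to 9.35 ± 1.96% in SS, from 14.9 ± 3.39% to 8.81 ± 1.12% in S2Ba and from 16.3 ± 1.12% to 11.1 ± 3.01% in S2Bb. The highest Tgfb2 share on high salt lay below the lowest on normal salt in each strain: 11.9% against 13.7% in SS, 9.54% against 11.1% in S2Ba and 14.6% against 14.8% in S2Bb. These shares are not adjusted for transcript length, so they compare libraries and not the isoforms.

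Smad7, an inhibitory Smad that the pathway induces and that blocks the type I receptor, passed no test on salt. It stood at 61.0 ± 11.8 and 65.8 ± 11.6 in SS (log2 fold change 0.11, limma adjusted p = 0.801), at 47.6 ± 23.2 and 59.1 ± 16.2 in S2Ba (0.39, limma adjusted p = 0.249) and at 55.3 ± 9.32 and 81.0 ± 23.5 in S2Bb (0.51, limma adjusted p = 0.0847). The S2Bb high salt libraries ran from 47.6 to 114.8 and overlapped those on normal salt, from 46.3 to 72.2. It passed in S2Ba without normal salt replicate 4 (limma adjusted p = 0.0488) and in S2Bb without high salt replicate 6 (0.0250) or in DESeq2 (0.0478).

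Counted together, 5 of the 9 members other than Lrrc32 passed the test on salt in SS, 4 in S2Ba and 6 in S2Bb. Over all tested genes the share that passed was 8.38% in SS, 15.2% in S2Ba and 22.1% in S2Bb. The diets did not overlap for 6 of the 10 members in SS (Lrrc32, Tgfb3, Tgfbr2, Tgfbr3, Ltbp1 and Ltbp2), 2 in S2Ba (Tgfbr1 and Ltbp2) and 4 in S2Bb (Lrrc32, Tgfbr2, Ltbp1 and Ltbp2), against 5.99%, 5.31% and 10.4% of all tested genes. Because the list was drawn up with salt results known, these counts describe it and are no evidence about it.

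No member other than Lrrc32, which was not tested, differed between strains on the same diet by limma (0 of 9 in each of the 4 comparisons). All-gene shares were 0.267% for S2Ba and 1.44% for S2Bb against SS on normal salt, and 1.73% and 0.267% on high salt. At an unadjusted p under 0.05, 1 and 2 of the 9 passed on normal salt and 2 and 0 on high salt, for S2Ba and S2Bb in turn. edgeR called 0 in each, and DESeq2 called 2 for S2Ba on high salt and 0 in the others. The smallest adjusted p was that of Tgfbr1 in S2Ba against SS on high salt, 170.2 ± 20.1 against 123.5 ± 15.5 (log2 difference 0.46, 95% interval 0.18 to 0.74, limma adjusted p = 0.0772). The libraries did not overlap, which held for 5.35% of all tested genes, and Tgfbr1 passed in DESeq2 and when only the groups of the comparison entered the fit. Ltbp2 in the same comparison had a log2 difference of 0.65 (95% interval 0.19 to 1.12, limma adjusted p = 0.134) and passed in DESeq2 or without S2Ba high salt replicate 5.

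A difference in the salt response between strains was not called for any of the 9 members by limma, with 0 called for either interaction, beside 0% of all tested genes for S2Ba and 0.171% for S2Bb. At an unadjusted p under 0.05, 1 of 9 passed for S2Ba and 0 for S2Bb, and edgeR and DESeq2 called 0. For Lrrc32, which was not tested, the difference in the log2 fold change from that of SS was 0.31 in S2Ba and 0.39 in S2Bb. Without any single library it stayed between 0.12 and 0.47 in S2Ba and between 0.30 and 0.56 in S2Bb. For Tgfbr3 it was -0.16 (-0.72 to 0.40) and -0.04 (-0.59 to 0.51), and for Ltbp2 0.41 (-0.23 to 1.04) and 0.34 (-0.28 to 0.96).

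Clock genes differed between libraries of the high salt groups, and their values are given beside Lrrc32 and Ltbp2. Arntl, a core transcription factor of the circadian clock, was 57.3 to 87.2 in all normal salt libraries. In SS on high salt it was 2.43, 4.0, 6.8 and 11.4 in replicates 2, 4, 5 and 6 and 74.3 in replicate 1, and that replicate also had the highest Lrrc32 of its group, 65.2. In S2Bb on high salt, replicates 1, 2 and 3 had Arntl at 79.9 to 82.9 and Lrrc32 at 52.7, 57.8 and 54.1, while replicates 4, 5 and 6 had Arntl at 20.6, 4.4 and 2.8 and Lrrc32 at 54.3, 45.8 and 47.3. Both S2Bb high salt sets lay below the normal salt Lrrc32 range of 87.5 to 108.2. Npas2, another clock gene, was 41.6, 51.9 and 53.8 in S2Bb high salt replicates 1, 2 and 3. It was 77.3 to 95.5 in S2Bb on normal salt. S2Ba normal salt replicates 5 and 6 had Arntl at 73.0 and 84.1, Npas2 at 54.1 and 55.8, and Lrrc32 at 54.1 and 44.1. The other S2Ba normal salt libraries had Npas2 at 76.8 to 92.8 and Lrrc32 at 93.5 to 150.9. On high salt, S2Ba had Arntl at 17.4 to 76.8 and Npas2 at 6.91 to 60.0. The part of clock state was not tested.

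With the first 2 principal components of the clock genes as covariates, the Lrrc32 log2 fold change was -1.10 in SS, -0.95 in S2Ba and -0.94 in S2Bb. That of Ltbp2 was 1.06, 1.33 and 1.24, with limma adjusted p = 0.0387 in SS, 0.000202 in S2Ba and 0.000559 in S2Bb. The SS calls of Tgfb3 and Ltbp1 were lost under these covariates, with adjusted p of 0.230 and 0.188. Of the 17 clock genes, limma called 11 on salt in SS, 2 in S2Ba and 4 in S2Bb. The shares of all tested genes were 8.38%, 15.2% and 22.1%. Clock state and diet thus largely coincide in SS, and the covariates cannot separate them there. Within each strain the numbers in the sample titles did not overlap between the diets: those of S2Bb high salt replicates 2 and 3 lie below all normal salt ones and those of the other high salt libraries above. What the numbers stand for is not stated, and diet cannot be told apart from whatever they mark.

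**Figure D4:**
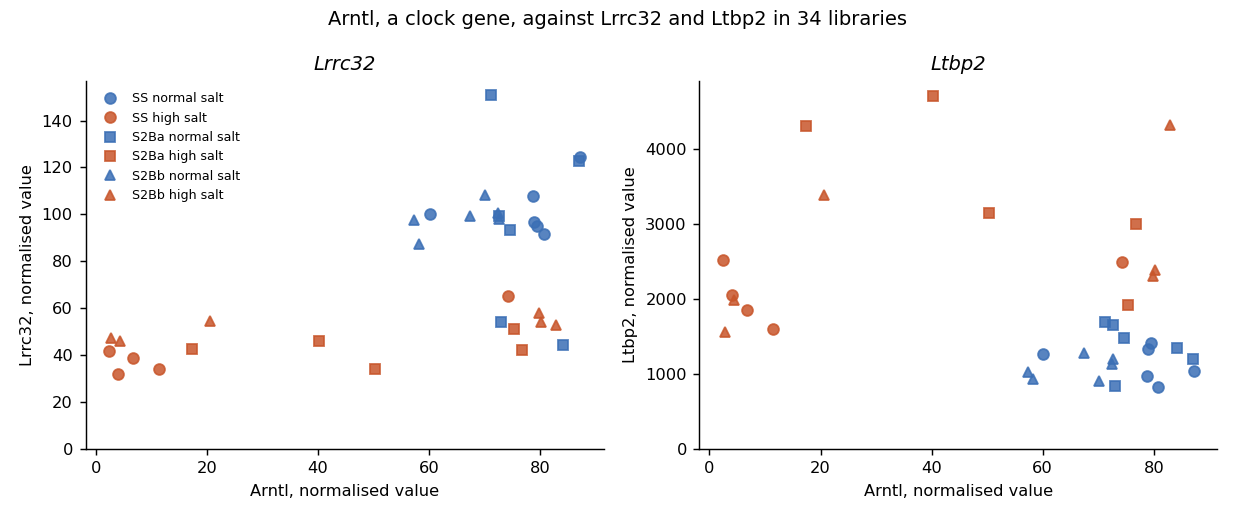
Normalised value of Arntl, a clock gene, on the x axis against Lrrc32 and Ltbp2 on the y axes; each point is a library, colour is the diet and shape is the strain. High salt libraries with Arntl at 74.3 to 82.9 have Lrrc32 between 42.2 and 65.2, below most normal salt libraries of the same Arntl. Their Npas2, another clock gene that is not plotted, was 41.6 to 75.8, and that of normal salt libraries 54.1 to 120.3.

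Among the 6 genes whose log2 values ran closest to those of Lrrc32 over the 34 libraries, of 12570 genes with a mean of at least 1, were Sash1 (Pearson r 0.90), Ptprf (0.90), Adgrg1 (0.90), Heyl (0.89) and Prelp (0.89). After the group means were taken out, r was 0.68, 0.75, 0.82, 0.70 and 0.73 in the same order. Sash1 went from 160.5 ± 13.5 to 101.1 ± 18.8 in SS, from 147.4 ± 27.7 to 89.1 ± 12.1 in S2Ba and from 180.5 ± 16.3 to 102.6 ± 12.3 in S2Bb. Ranked by Spearman's rho in place of Pearson's r, the first gene was Npas2, a clock gene (rho 0.90), and of the first 6 only Prelp was shared. All genes of a library share its diet, size factor and clock state, so these are descriptions of this table. Of the members, Tgfbr3 stood nearest Lrrc32 over libraries (r 0.79, and 0.48 within groups), and Smad7 stood nearest within groups (r 0.54, and -0.04 over libraries).

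Markers of the cells in which Lrrc32 is best known were examined beside it. In bulk tissue, fewer cells of a type and less RNA per cell cannot be told apart. The 4 regulatory T cell markers summed to at most 4.56 in any library, and the 5 of 6 platelet and megakaryocyte markers in the table summed to at most 17.7, with Ppbp at 0 throughout SS on high salt. The 9 of 10 endothelial markers in the table summed to between 278 and 588 on normal and between 303 and 616 on high salt, with r of -0.13 against Lrrc32. Within groups the r of the sum was 0.04. That sum is led by Vwf, at a mean of 217.9 over libraries, whose r was -0.41. The highest r were 0.74 for Kdr, 0.51 for Cdh5 and 0.45 for Emcn. The other markers lay between -0.02 for Tek and 0.39 for Nos3. Within groups, r over the 9 markers lay between -0.16 for Tek and 0.31 for Cdh5. On high salt Kdr (log2 fold change -1.45, limma adjusted p = 0.00559) and Cdh5 (-0.62, limma adjusted p = 0.0370) fell in SS, Kdr fell in S2Bb (-1.18, limma adjusted p = 0.00386), and Vwf rose in S2Ba (0.73, limma adjusted p = 0.0453). The median over the 9 endothelial markers was -0.31 in SS, -0.16 in S2Ba and 0.00 in S2Bb. The endothelial genes named here were picked after their values were seen.

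The 6 of 7 fibroblast markers in the table had lower summed values on high salt. They summed to 8973 ± 1177 on normal and 6140 ± 1431 on high salt in SS, 8026 ± 2453 and 4319 ± 1043 in S2Ba, and 8412 ± 1298 and 5481 ± 1111 in S2Bb. Their sums ran from 5616 to 12281 over normal salt and from 2790 to 8692 over high salt, and no marker of the list in the table was at 0 in any group. The r of the sum against Lrrc32 was 0.73 over libraries and 0.34 within groups. More than any other marker, Col1a1 makes up that sum, at a mean of 4720.5 (r 0.73, and 0.41 within groups). Col1a1 also stands in the list of transcriptional targets. The other 5 markers had r between -0.02 for Dcn and 0.39 for Lum over libraries, and between -0.46 and -0.06 within groups. The median log2 fold change over the 6 fibroblast markers was -0.26 in SS, -0.43 in S2Ba and -0.04 in S2Bb. Those called, all lower, were Pdgfra in SS, Col1a1 and Dpt in S2Ba, and Col1a1 and Lum in S2Bb. For 8 smooth muscle markers the r of the sum against Lrrc32 was 0.24 over libraries and 0.46 within groups. For 7 skeletal and cardiac muscle markers it was 0.60 and 0.54. Their sums ran from 37.6 to 111.0 on normal and from 36.1 to 102.6 on high salt. By strain they were 67.5 ± 18.9 on normal and 63.0 ± 22.6 on high salt in SS. They were 58.4 ± 26.6 and 43.9 ± 8.64 in S2Ba, and 80.4 ± 15.7 and 47.4 ± 6.52 in S2Bb. Acta1 leads the skeletal and cardiac muscle sum, at a mean of 37.6 over libraries (r 0.36, and 0.37 within groups). Of the 7 markers, 4 were tested, and the others of these had r of 0.67 for Ckm, 0.32 for Tnnt3 and -0.08 for Actn2. The 5 mesothelial markers summed to between 10.4 and 27.4 on normal and between 4.33 and 13.1 on high salt, with r of 0.54 against Lrrc32 and 0.08 within groups. The mesothelial sum stood at 12.5 ± 1.89 on normal and 12.0 ± 1.01 on high salt in SS. It went from 17.3 ± 5.14 to 8.79 ± 3.01 in S2Ba and from 18.8 ± 4.05 to 8.26 ± 2.05 in S2Bb. Of the 3 mesothelial markers tested, Krt8 and Krt18 fell in S2Ba and S2Bb. These 2 keratins make up most of the mesothelial sum, at means of 6.54 and 5.78 over libraries. Their r against Lrrc32 was 0.45 and 0.53, and -0.07 and 0.10 within groups. Against Ltbp2, r was -0.74 for the mesothelial sum (-0.44 within groups) and -0.65 for the fibroblast sum (0.11 within groups). It was -0.60 for the Schwann and neuronal sum (-0.41 within groups) and -0.49 for the regulatory T cell sum (-0.48 within groups). For the remaining cell types r lay between -0.48 for skeletal and cardiac muscle and 0.42 for macrophages. The part of these cell types in the Lrrc32 and Ltbp2 results was not tested.

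The wider pathway was read from 83 further genes in 5 lists, of which 79 were tested. The lists hold genes such as Postn, Nox4 and Timp1 whose salt results were already known, so their counts too are descriptive. On salt, 3 rose and 5 fell in SS, 16 rose and 11 fell in S2Ba, and 17 rose and 11 fell in S2Bb, which is 10.1%, 34.2% and 35.4% of those tested beside 8.38%, 15.2% and 22.1% of all genes. With the 9 members other than Lrrc32 added, 13, 31 and 34 of 88 genes were called, and 5 were called in the same direction in all 3 strains. These were Ltbp2, Postn and Id3 upward and Tgfbr3 and Smad3 downward, Id3 being named after its values were seen. The SS count of 13 fell to between 6 and 8 without normal salt replicate 4, 5 or 6 or high salt replicate 4, 5 or 6, to 7 with no filter on low values and to 3 with clock genes as covariates.

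Among 15 tested genes of latency and activation, 0 were called in SS by limma, edgeR or DESeq2 (3 at an unadjusted p under 0.05), 1 rose and 4 fell in S2Ba, and 2 rose and 5 fell in S2Bb; the list's median log2 fold change was -0.17, -0.08 and 0.05. Ltbp4, another latent TGF-beta binding protein, fell from 548 ± 230 to 249.6 ± 36.04 in S2Ba (log2 fold change -1.02, limma adjusted p = 0.00643) and from 767 ± 115 to 369 ± 114 in S2Bb (-1.10, limma adjusted p = 0.00139). It stood at 686 ± 209 and 457 ± 142 in SS (-0.56, limma adjusted p = 0.166). Itgb8, an integrin subunit that releases TGF-beta from its latent complex, fell in S2Ba (-0.75, limma adjusted p = 0.00155) and S2Bb (-0.58, limma adjusted p = 0.00588). In SS it stood at 53.6 ± 5.14 and 41.3 ± 4.00 and did not pass.

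Thbs1, a matricellular activator of latent TGF-beta, rose in S2Ba from 7.72 ± 5.31 to 54.3 ± 32.99 (log2 fold change 2.63, SE 0.60, limma adjusted p = 0.00265). In S2Bb 9.71 ± 11.7 stood against 22.1 ± 30.7 (0.95, limma adjusted p = 0.239), and in SS 9.21 ± 5.45 against 8.82 ± 3.21 (0.05, limma adjusted p = 0.971). Emilin1, a matrix glycoprotein that restrains TGF-beta processing in mice, fell in S2Bb from 148.1 ± 15.9 to 96.1 ± 19.9 (-0.65, limma adjusted p = 0.000993). It did not pass in SS (109.4 ± 17.8 and 112.9 ± 10.7) or in S2Ba (121.8 ± 27.1 and 103.5 ± 14.4).

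Of 17 tested ligands and antagonists of the wider family, 1 fell in SS, 4 rose and 2 fell in S2Ba, and 4 rose in S2Bb. Bmp4, a bone morphogenetic protein (BMP), rose in S2Ba from 22.8 ± 3.14 to 44.3 ± 10.2 (log2 fold change 0.93, limma adjusted p = 0.000179). Bmp6 rose in S2Ba (0.94, limma adjusted p = 0.00434) and S2Bb (0.69, limma adjusted p = 0.0192). Grem1, a secreted BMP antagonist, rose in S2Ba from 0.731 ± 0.415 to 4.42 ± 2.39 (1.90, limma adjusted p = 0.000792), at values of few reads. Fst, the activin antagonist follistatin, fell in SS from 6.41 ± 1.85 to 2.90 ± 1.58 (-1.08, limma adjusted p = 0.00961). It had 180 to 406 reads in a group. Where these genes did not pass, the high to normal salt ratio of group means still lay in the same direction. The ratio was 1.32 in SS and 1.30 in S2Bb for Bmp4, and 1.55 in SS for Bmp6, beside 1.54 in S2Bb. For Grem1 it was 1.25 in SS and 1.95 in S2Bb, and for Fst 0.67 in S2Ba and 0.60 in S2Bb. Of 10 other receptors and co-receptors, Bambi, a pseudoreceptor that damps signalling, was the only one called: it rose in SS (0.92, limma adjusted p = 0.00963) and S2Ba (0.65, limma adjusted p = 0.0397), and in S2Bb stood at 17.9 ± 5.03 and 15.99 ± 3.803. For S2Bb, limma, edgeR and DESeq2 called 0 of these receptors, with 2 at an unadjusted p under 0.05.

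Smads and their regulators, with 17 tested, held 2 genes that fell in SS, 2 that rose and 2 that fell in S2Ba, and 2 that rose and 3 that fell in S2Bb. Smad3, the signal transducer that the type I receptor phosphorylates, fell from 63.9 ± 13.2 to 42.6 ± 2.45 in SS (log2 fold change -0.56, limma adjusted p = 0.0144), from 55.7 ± 13.1 to 36.2 ± 4.95 in S2Ba (-0.60, limma adjusted p = 0.00390) and from 68.3 ± 12.5 to 38.5 ± 5.50 in S2Bb (-0.81, limma adjusted p = 5.42e-05). Pmepa1, a target of the pathway that sequesters Smads, fell in SS (-0.78, limma adjusted p = 0.00973) and S2Bb (-0.78, limma adjusted p = 0.00167). The co-repressor Ski fell in S2Bb (-0.66, limma adjusted p = 0.00589), and Ldlrad4, an inhibitor of Smad activation, rose there (0.30, limma adjusted p = 0.00251). The high to normal salt ratio of the Ski group means was 0.68 in SS and 0.67 in S2Ba, without passing, and 0.64 in S2Bb. That of Ldlrad4 was 1.12 in SS and 1.15 in S2Ba, without passing, and 1.23 in S2Bb. For Pmepa1 in S2Ba, which did not pass, it was 0.72.

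Of 20 tested transcriptional targets, 2 rose and 2 fell in SS, 8 and 3 in S2Ba, and 9 and 3 in S2Bb. Their median log2 fold changes were 0.30, 0.33 and 0.31, beside medians of all genes between -0.02 and 0.00. Those that fell were Tgfbi and Klf10 in SS, Tgfbi, Col1a1 and Col3a1 in S2Ba, and Ctgf, Col1a1 and Col3a1 in S2Bb. The genes that fell were named after their values were seen. Postn, the matricellular protein periostin, went from 487 ± 237 to 1092 ± 125 in SS (1.29, limma adjusted p = 0.0167), from 533 ± 245 to 2708 ± 840 in S2Ba (2.42, limma adjusted p = 2.36e-05) and from 504 ± 207 to 2114 ± 1053 in S2Bb (2.03, limma adjusted p = 2.95e-05). Nox4, a hydrogen peroxide producing oxidase, rose in S2Ba (0.70, limma adjusted p = 0.0215) and S2Bb (1.24, limma adjusted p = 3.74e-05). Id1, a target known above all from BMP signalling, rose in S2Ba (0.89, limma adjusted p = 0.0113) and S2Bb, where it went from 13.6 ± 2.69 to 34.9 ± 4.00 (1.34, limma adjusted p = 8.18e-05). Snai2, a transcriptional repressor, rose in S2Ba from 2.72 ± 0.783 to 7.81 ± 2.28 (1.36, limma adjusted p = 0.000114). In S2Bb it rose from 1.66 ± 0.457 to 4.83 ± 1.503 (1.29, limma adjusted p = 5.21e-05). Its reads were 132 to 471 in a group. Nox4, Id1 and Snai2 did not pass in SS, where the high to normal salt ratio of group means was 1.28, 1.28 and 1.40.

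**Figure D5:**
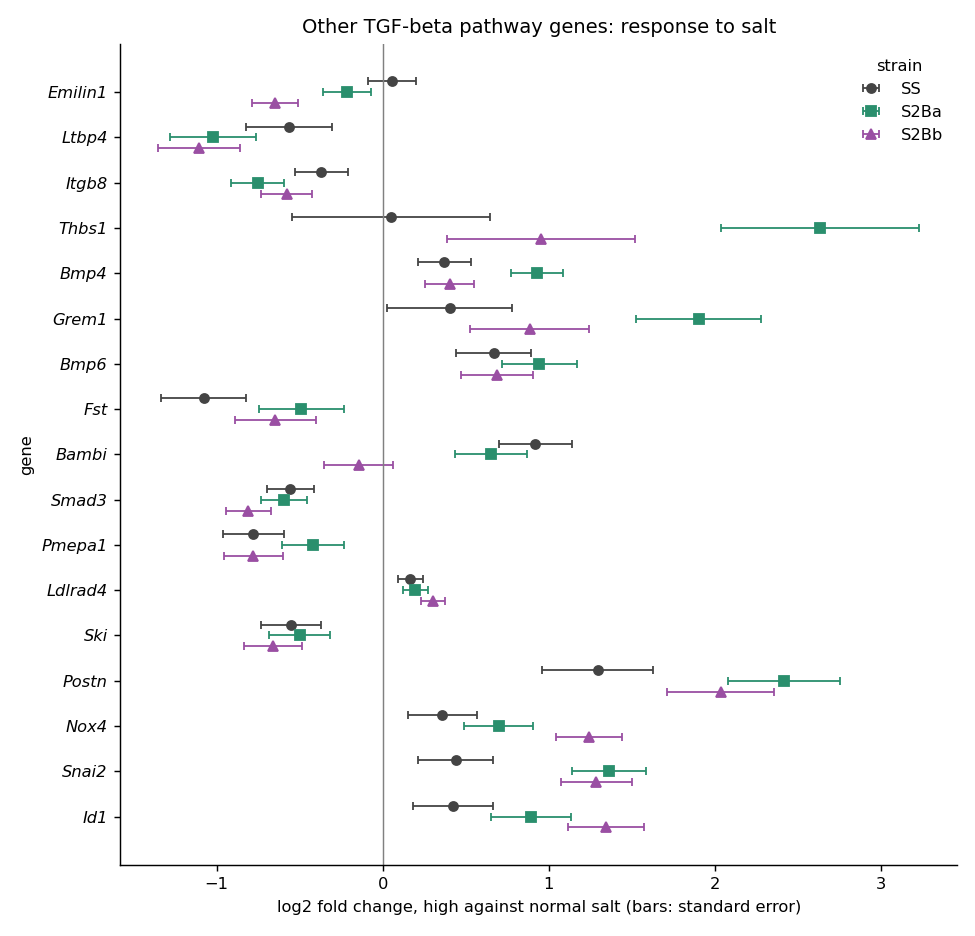
Log2 fold change of high against normal salt for the named genes of the 5 pathway lists in SS, S2Ba and S2Bb; points are estimates of the 6-group model and bars are standard errors. Postn, at 1.29 to 2.42, and Smad3, at -0.81 to -0.56, lie on the same side of 0 in all 3 strains, whereas Thbs1 spans 0.05 in SS to 2.63 in S2Ba.

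Between strains, 5 of the 79 genes were called, all in S2Ba against SS on high salt (6.33%, beside 1.73% of all genes). Nog, a BMP antagonist with values of only 1.97 ± 0.943 against 0.563 ± 0.173, Smurf2, a ubiquitin ligase acting on Smads and receptors, Timp1, a metalloproteinase inhibitor, and Snai2 were higher in S2Ba. Chrd, the BMP antagonist chordin, was lower. The log2 differences were 1.16 for Nog (limma adjusted p = 0.0142), 1.08 for Snai2 (limma adjusted p = 0.0141), 0.74 for Timp1 (limma adjusted p = 0.0381), 0.35 for Smurf2 (limma adjusted p = 0.0321) and -0.48 for Chrd (limma adjusted p = 0.0440). With clock genes as covariates 0 were called, and likewise 0 without SS high salt replicate 4 or without S2Ba high salt replicate 4. The count was 2 or 3 without SS high salt replicate 1, 2, 5 or 6 or S2Ba high salt replicate 3 or 6, and 9 without S2Ba high salt replicate 5. In the other strain comparisons and both interactions limma called 0 of the 79, with 5 to 15 at an unadjusted p under 0.05, beside 1181 to 1960 of all 13475 tested genes. There edgeR called 0 or 1 and DESeq2 between 0 and 3.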

How the data were processed

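Aorta total RNA-seq of 34 libraries was used; of the 36 samples, replicate 3 of SS and replicate 2 of S2Ba, both on high salt, were not analysed here. The submitters' processing notes name STAR 2.3.1, edgeR 3.6.8, R 3.2.3, bcl2fastq 1.8.4 and FastQC. For the build, annotation, counter and strand setting, the sources used here give nothing. The signal the authors deposited is 1 value per gene and library and not a count. Divided by the value of 1 read, 100% of values were whole reads within 0.01 reads, so the deposited signal is reads over a size factor. Foreseen for counts was edgeR, and for normalised values limma, which was therefore used.

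From this, limma 3.58.1 (R 4.3.3) was fitted with a trend to log2(value + 0.5) of the 13475 of 26106 genes with a mean of at least 0.5, with 1 mean per group over the 6 groups. The 9 contrasts were high against normal salt per strain, congenic against SS rats per diet and the interactions. P-values were 2-sided and Benjamini-Hochberg adjusted over all tested genes, with calls made under 0.05. Fold changes on this scale understate the change of genes with low values. Alternatives were pseudocounts of 1 and 0.1, no filter, TMM and upper quartile scaling, only the groups compared, edgeR 4.0.16 quasi-likelihood and DESeq2 1.42.0 on the recovered reads, 2 clock components as covariates, and each of 34 libraries left out. Fits were tested on simulated data.

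The members and lists were chosen with earlier results of these data known. Named were all members; per list, the 4 genes called on salt that had the lowest adjusted p over the 3 strains (mean of at least 1); up to 4 called per list in each other contrast; and the 6 genes most like Lrrc32, of which 1 is not reported here. Replicates are numbered by record order, which pairs nothing. Promoters came from RefSeq (GRCr8), which holds all 10 members by symbol and 9 with a promoter entry.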

Additional observations from a re-analysis of the deposited data

Results flagged for a closer look

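In 3 of 60 combinations of a member and a group, a single library lay far from the others of its group, which chance gives in about 1 of 20 groups. Tgfb1 was 21.7 in S2Bb normal salt replicate 2, while the other 5 libraries held 10.97 to 14.6. Tgfb3 was 682 in S2Ba normal salt replicate 4, while the other 5 held 331 to 450. Smad7 was 84.3 in SS normal salt replicate 2, while the other 5 held 51.5 to 60.2. Lrrc32, the receptors and the binding proteins had no library so far from its group.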

How the results depend on the processing

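The counts of called genes among the 88 tested pathway genes other than Lrrc32 were 31 for salt in S2Ba and 34 in S2Bb, and they stayed within 1.5 times of these under every alternative (24 to 34 and 29 to 40). For salt in SS the count of 13 went to 7 with no filter and 3 with clock covariates, and to between 6 and 14 without 1 library. For S2Ba against SS on high salt the count of 5 became 2 with no filter, 10 with only the groups compared, 8 in edgeR, 14 in DESeq2 and 0 with clock covariates, and between 0 and 9 without 1 library. On normal salt the count of 0 became 1 in DESeq2 for S2Ba, with 0 to 2 without 1 library; for S2Bb it became 1 with TMM, 1 in edgeR and 3 in DESeq2, with 0 to 2 without 1 library. For the S2Bb interaction 0 became 1 in DESeq2. The cause was not tested. The salt fold change of Tgfb1 in S2Bb, 0.03, turned to -0.26 with clock covariates, and to -0.05 without S2Bb normal salt replicate 6, -0.10 without high salt replicate 4 and -0.021 without high salt replicate 5. No other salt fold change of a member changed sign under the alternatives run, and those of Lrrc32 moved by less than the residual SD. Nog, Grem1, Snai2 and Fst rest on few reads, 18 to 471 in a group. No paired analysis was possible because the labels give no replicate numbers that pair samples.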
